A study of Homo sapiens with 8 samples.

Results

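The genes examined were BCL3 and NFKBIZ, the 5 subunits of the transcription factor NF-kappa-B (NFKB1, NFKB2, REL, RELA and RELB), and NFKBIA, NFKBIE and TNFAIP3, which restrain the pathway. They were measured in human cancer cell lines after knockdown of PIR or transfection of a microRNA. The 10 genes were taken by exact match of the gene name on the array, with every probe kept, and made up 10 of 43317 gene names. They were represented by 11 of 58201 probes: RELA had 2, and each of the other 9 genes had 1. All 11 probes were well above background in both channels on all 8 arrays, whereas 34.0% of all probes were.

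Each of the 8 arrays compared 2 RNAs of 1 cell line, with the mock sample in the Cy3 channel and the transfected sample in the Cy5 channel. On 2 arrays PC3 prostate cancer cells had received si-PIR-2 or si-PIR-3, small interfering RNAs against PIR. The other 6 arrays were SK-MES-1 lung squamous cell carcinoma cells given miR-144-5p or miR-144-3p, SW1990 pancreatic cancer cells and MDA-MB-231 breast cancer cells given miR-204-5p, and PANC1 pancreatic cancer cells given miR-130-5p or miR-130-3p. Transfection was with Lipofectamine RNAiMAX, and the labels describe the mock sample as not transfected, so a change caused by the particular RNA and one caused by transfection as such cannot be told apart in a single ratio. Dyes were not swapped, and a dye effect and a transfection effect on 1 array cannot be told apart either. The labels do not say whether cultures were separate, so the p-values measure only the spread between arrays. The 2 si-PIR arrays carried different siRNAs and the 2 miR-204-5p arrays different cell lines, with no repeat of either. Their means, SDs and p-values therefore pool 2 siRNAs or 2 lines.

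The NF-kappa-B subunits act as dimers. NFKB1 and NFKB2 encode precursors that are processed to the DNA-binding subunits p50 and p52, which lack an activation domain, while RELA, RELB and REL carry one. In resting cells NFKBIA (I-kappa-B alpha) and NFKBIE (I-kappa-B epsilon) hold dimers in the cytoplasm, and a kinase cascade triggers their degradation. NFKBIA and TNFAIP3, which encodes the ubiquitin-editing enzyme A20, are themselves switched on by NF-kappa-B and shut the response down. BCL3 and NFKBIZ (I-kappa-B zeta) are nuclear members of the I-kappa-B family that bind p50 or p52 dimers on DNA. The PIR protein, pirin, is an iron-containing nuclear protein known as a cofactor of the BCL3 and NF-kappa-B complex, which is why this family was of interest after PIR knockdown.

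The probes are 60-base oligonucleotides, and a stretch of 30 bases is given for the genes the results turn on, 5′ to 3′ from the array design, with runs of 4 or more G in capitals.
BCL3: taccagataactgaggaGGGGagaggtggg
NFKB1: cccgcctgaatcattctcgatttaactcga
RELB: cagacttgaaggtGGGGGGtaggttggttg
NFKBIA: tgatgtGGGGtgaaaagttactacctgtca
TNFAIP3: ccttatgaaactccagctatgtaataaaaa
A run of 4 G was present in 5 of the 11 probes (BCL3, RELB, NFKBIA, NFKBIZ and the dimmer RELA probe), against 11.5% of all probes, and its part in the results was not tested. On hg19 these 5 probes lie at chr19:45263191-45263250 (BCL3), chr4:103537856-103537915 (NFKB1), chr19:45541385-45541444 (RELB), chr14:35870788-35870847 (NFKBIA, minus strand) and chr6:138203679-138203738 (TNFAIP3). The exon or untranslated region they fall in was not determined here.

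The microRNAs transfected on 4 of the arrays have the mature sequences below in RefSeq (GRCh38.p14), with the seed, bases 2 to 8, in capitals, and they are shown because no seed is shared among them.
hsa-miR-144-5p: gGAUAUCAucauauacuguaag
hsa-miR-144-3p: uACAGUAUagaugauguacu
hsa-miR-204-5p: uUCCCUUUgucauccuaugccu
The labels do not give the family member for miR-130-5p and miR-130-3p, so none is printed for them.

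Several of the genes are known targets of the pathway they regulate, and the promoters of 3 that the results turn on are shown over the 120 bases before the transcription start (RefSeq, GRCh38.p14, 5′ to 3′ on the gene's strand), with matches to the kappa-B decamer consensus in capitals.
NFKB1: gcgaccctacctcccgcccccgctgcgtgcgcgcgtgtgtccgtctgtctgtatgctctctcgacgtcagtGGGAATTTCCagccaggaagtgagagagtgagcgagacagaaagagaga
NFKBIA: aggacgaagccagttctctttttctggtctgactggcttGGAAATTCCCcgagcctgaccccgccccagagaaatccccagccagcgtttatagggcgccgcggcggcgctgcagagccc
TNFAIP3: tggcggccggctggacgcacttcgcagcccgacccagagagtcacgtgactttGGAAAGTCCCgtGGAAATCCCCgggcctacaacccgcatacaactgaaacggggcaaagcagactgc
These stretches are chr4:102501239-102501358 (plus strand), chr14:35404750-35404869 (minus strand) and chr6:137867139-137867258 (plus strand). The consensus was searched on both strands over the 250 bases before each start, and overlapping matches were allowed. Some genes have several starts, and each stretch shown belongs to a start with a match. NFKB1 had another start without one. A gene counted if any of its starts had a match. Of the 13 starts of these genes 8 had one, against 9.96% of all starts. Of the 8 genes with a promoter entry, 6 held a match (NFKB1, NFKB2, REL, NFKBIA, NFKBIZ and TNFAIP3), against 11.8% of 27305 genes, and BCL3 and RELA held none in this window. A match is a stretch of letters and not a binding site shown to be used.

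Before the results, the arrays were checked against their labels. All 8 lay on 1 slide with 1 scan time, between 41.4% and 46.4% of probes were well above background in the mock channel, and the median ratio per array over the probes tested lay between 0.00 and 0.07 on the log2 scale. The targeted gene, PIR, had log2 ratios of -5.46 with si-PIR-2 and -4.27 with si-PIR-3, with mean intensities of 92.1 and 170 in the transfected channel against 1725 and 1812 in the mock channel. On the other arrays the PIR ratio lay between -0.24 and 0.05, except for -1.59 with miR-130-5p in PANC1. EPCAM, KRT8, KRT18, KRT19 and VIM were well above background in the mock sample of every array. KLK3 and PGR were on none, and KRT5 and KRT6A, markers of squamous epithelium, were not well above background in SK-MES-1, where TP63 was. Of the leukocyte and endothelial markers, PTPRC, CD14 and CDH5 were well above background on all 8 arrays, CD3E and PECAM1 on 4 and MS4A1 on none, and their part in the results was not tested.

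The values that follow are the scanner's log2 ratio of transfected over mock for each probe, with the scanner's own error estimate of 1 array in brackets where it is given, which was between 0.204 and 0.335 for the 11 probes. BCL3, the nuclear partner of pirin, was higher on both PIR-knockdown arrays. Its ratio was 0.48 (error 0.21) with si-PIR-2 and 0.62 (error 0.21) with si-PIR-3. On the 6 microRNA arrays it was 0.27 with miR-144-5p, -0.16 with miR-144-3p, -0.42 with miR-204-5p in SW1990, 0.03 with miR-204-5p in MDA-MB-231, 0.37 with miR-130-5p and 0.31 with miR-130-3p. The 2 si-PIR arrays therefore lay above all 6 others without overlap, as did 5.13% of the 24109 probes tested, and BCL3 was the 1 member probe of 11 that did. The 2 values for BCL3 differed from each other by less than the error of 1 array. The same held for si-PIR-2 at 0.48 against miR-130-5p at 0.37 and miR-130-3p at 0.31, so the gap to the microRNA arrays was also within that error. Its mean over the si-PIR arrays was 0.55 ± 0.10 (SD, n = 2), a 1.46-fold higher level, with an adjusted p of 0.471 in limma. The difference from the microRNA arrays was 0.48 (SE 0.24), with an adjusted p of 0.757.

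**Figure D1:**
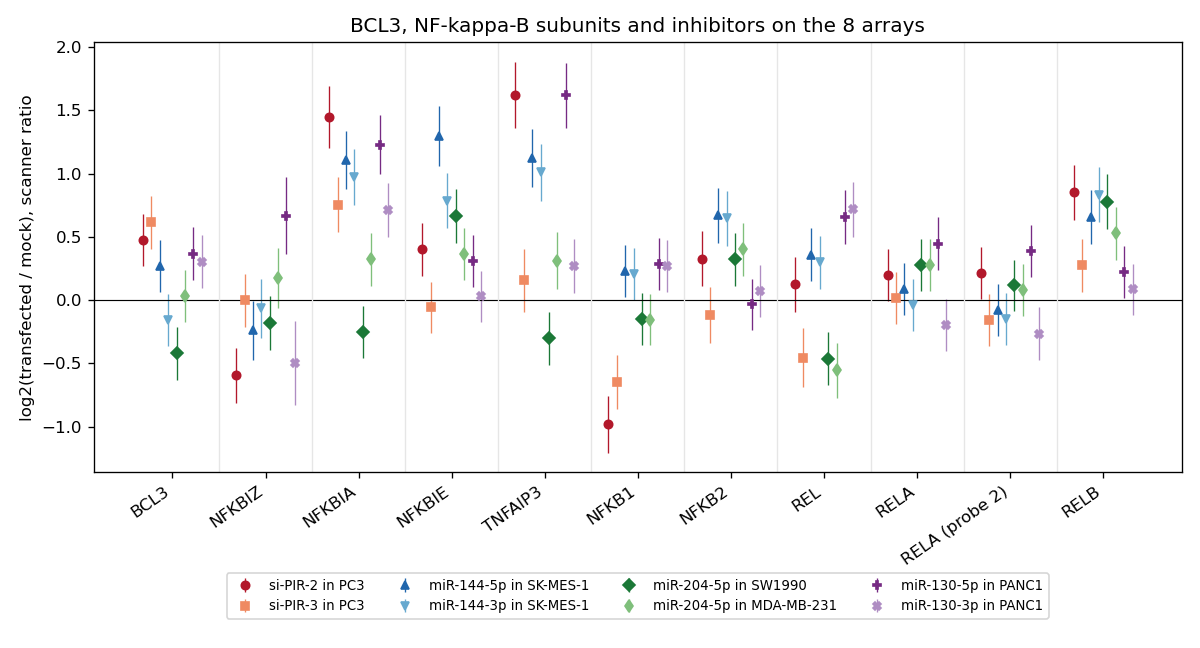
Log2 ratio of transfected over mock (y axis) for the 11 probes of the 10 genes (x axis), 1 symbol per array, with bars showing the scanner's error of that array. For NFKB1 the 2 si-PIR symbols lie at -0.98 and -0.64 below all others, RELB lies above 0 on all 8 arrays, and NFKBIA and TNFAIP3 reach above 1 on several.

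NFKB1, which gives the p50 subunit that BCL3 binds, was lower on both PIR-knockdown arrays. NFKBIZ was also below 0 on both, at -0.59 with si-PIR-2 and -0.002 with si-PIR-3. The NFKB1 ratio was -0.98 (error 0.22) with si-PIR-2 and -0.64 (error 0.21) with si-PIR-3. With miR-144-5p, miR-144-3p, miR-130-5p and miR-130-3p it was 0.23, 0.21, 0.28 and 0.27, and with miR-204-5p it was -0.15 in both SW1990 and MDA-MB-231. Both si-PIR arrays lay below all 6 others, as did 5.05% of all probes tested, and NFKB1 was the 1 member probe that did. The mean over the si-PIR arrays was -0.81 ± 0.24 (SD, n = 2), a level 1.76-fold lower than in mock cells. Against mock the unadjusted p in limma was 0.0151 and the adjusted p 0.444, and against the 6 microRNA arrays the difference was -0.93 (SE 0.21), with an unadjusted p of 0.00126 and an adjusted p of 0.376. The intensity behind these values was 257 and 266 in the mock channel and 241 and 270 in the transfected channel before dye normalization. The second comparison sets ratios of the same dye orientation against each other, but PC3 was used only for PIR knockdown, so cell line and knockdown cannot be told apart in it.

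**Figure D2:**
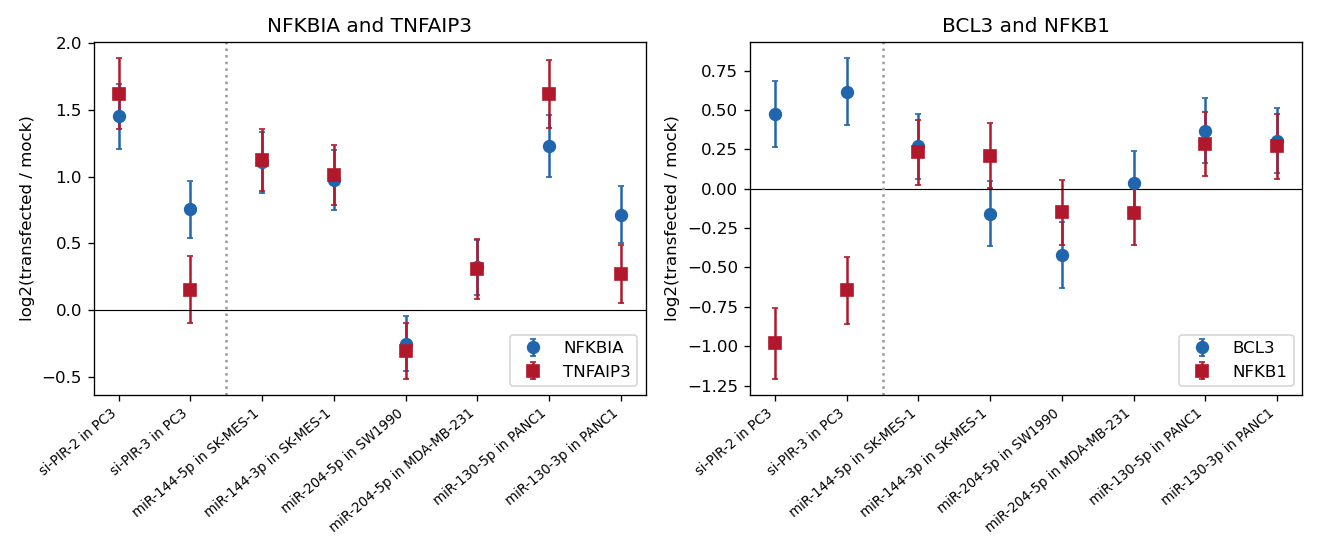
Log2 ratio of transfected over mock (y axis) on each of the 8 arrays (x axis), with the scanner's error as bars and a dotted line between the si-PIR and microRNA arrays. NFKBIA and TNFAIP3 (left) have their lowest ratios, -0.25 and -0.30, with miR-204-5p in SW1990, and on the si-PIR arrays (right) BCL3 is at 0.48 and 0.62 while NFKB1 is at -0.98 and -0.64.

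No member passed the adjusted threshold of 0.05 for PIR knockdown against mock, where 0% of 29370 probes did. At an unadjusted p under 0.05 NFKB1 was lower, as were 4.15% of all probes, and BCL3 and NFKBIA were higher, as were 6.32% of all probes. None of the 11 probes was at or below -1 on both si-PIR arrays (0.426% of all probes were), and none was at or above 1 on both (0.780% of all probes were). Over the 11 probes the median log2 value was 0.11, against 0.03 over all probes tested, and 8 of the 11 were above 0, where 54.0% of all probes were. Against the 6 microRNA arrays 0% of 24109 probes passed the adjusted threshold, and at an unadjusted p under 0.05 NFKB1 was the 1 member that was lower, as were 3.88% of all probes. The unadjusted counts over all probes were 1219 lower and 1857 higher against mock, and 935 lower and 711 higher against the microRNA arrays. Even PIR did not pass, with -4.86 (SE 0.35) and an adjusted p of 0.384 against mock over 2 arrays, and -4.52 (SE 0.46) and an adjusted p of 0.0553 against the 6 others. Against the 6 others PIR passed under 9 of 16 alternatives, with adjusted p between 0.00768 and 0.610.

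NFKBIA, the inhibitor that NF-kappa-B itself induces, had a ratio above 0 on 7 of the 8 arrays. Its probe was printed 10 times on each array, and 2 of these spots were flagged by the scanner on every array and left out. The 8 spots used agreed within an SD of 0.01 to 0.04 on each array, which measures repeat spots of 1 hybridization and not the spread between arrays. The scanner's error for NFKBIA was larger, between 0.205 and 0.244. Some arrays lay closer to each other than that error, such as si-PIR-3 at 0.75 and miR-130-3p at 0.72. The NFKBIA ratio was 1.45 with si-PIR-2, 0.75 with si-PIR-3, 1.11 with miR-144-5p, 0.97 with miR-144-3p, 1.23 with miR-130-5p and 0.72 with miR-130-3p. With miR-204-5p it was -0.25 in SW1990 and 0.32 in MDA-MB-231. The 2 miR-204-5p arrays were thus the lowest of the 8. PIR knockdown gave a mean of 1.10 ± 0.49 (SD, n = 2), 2.15-fold higher than mock, with an unadjusted p of 0.0119 and an adjusted p of 0.439 in limma. That mean was not set apart from the microRNA arrays, whose mean was 0.68 ± 0.56 (SD, n = 6), with a difference of 0.43 (SE 0.39, adjusted p = 0.901).

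TNFAIP3, the gene of A20, showed nearly the same order of arrays as NFKBIA. The TNFAIP3 ratio was 1.62 with si-PIR-2, 0.16 with si-PIR-3, 1.12 with miR-144-5p, 1.01 with miR-144-3p, -0.30 with miR-204-5p in SW1990, 0.31 with miR-204-5p in MDA-MB-231, 1.62 with miR-130-5p and 0.27 with miR-130-3p. The 2 siRNAs against PIR thus differed by far more than the error of 0.26 and 0.25 on their arrays. Over the 8 arrays the ratios of NFKBIA and TNFAIP3 had a Pearson r of 0.908 and a Spearman rho of 0.905, and r was 0.844 without the 2 arrays farthest from the median of NFKBIA. This is a description of 8 arrays, among which 3 cell lines appear on 2 arrays each, and of the 45 pairs among the 10 genes it had the highest r. The mock level of TNFAIP3 was low, with an intensity of 35 in PC3 and up to 188 in SW1990, and after normexp background correction with an offset of 50 and loess the ratios were smaller, at 0.63 and 0.04 on the si-PIR arrays and 0.85 with miR-130-5p. The si-PIR mean of 0.89 (SE 0.41) had an adjusted p of 0.525.

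NFKBIE, which encodes the other cytoplasmic inhibitor, had its highest ratios in SK-MES-1. Its ratio was 1.30 with miR-144-5p and 0.79 with miR-144-3p, 0.66 and 0.37 with miR-204-5p in SW1990 and MDA-MB-231, and 0.31 and 0.03 with miR-130-5p and miR-130-3p. On the si-PIR arrays NFKBIE was at 0.40 and -0.06, so the 2 siRNAs did not give 1 direction. NFKBIZ, the second nuclear I-kappa-B gene, was dim, with mock intensities between 27 and 71. The NFKBIZ ratio ranged from -0.59 with si-PIR-2 to 0.67 with miR-130-5p, was below 0 on 6 arrays, and did not hold its sign within PANC1, where miR-130-3p gave -0.50.

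RELB, the subunit of the noncanonical pathway that pairs with p52, was the 1 member above 0 on all 8 arrays, as were 4.63% of the 24109 probes tested. The RELB ratio was 0.85 with si-PIR-2, 0.27 with si-PIR-3, 0.66 with miR-144-5p, 0.83 with miR-144-3p, 0.78 and 0.53 with miR-204-5p in SW1990 and MDA-MB-231, 0.22 with miR-130-5p and 0.08 with miR-130-3p. The PANC1 arrays and si-PIR-3 were the lowest. Its mean over the 8 arrays was 0.53 ± 0.30 (SD, n = 8), 1.45-fold higher than mock (SE 0.11), with an adjusted p of 0.0446 in limma with cell line as a random block. It was the 1 member probe of 11 called higher, where 1.11% of all probes were, and none was called lower, where 0.494% of all probes were. The call ended when any 1 array was left out, with adjusted p between 0.0691 and 0.116, and also with ratios centred on the array median (0.0559) or without the filter on dim probes (0.0994). Since Cy5 was the transfected channel throughout, a dye effect of this probe and a change in RELB cannot be told apart.

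At an unadjusted p under 0.05 over all 8 arrays, 5 of the 11 member probes were higher (NFKB2, RELB, NFKBIA, NFKBIE and TNFAIP3), against 12.2% of all probes. NFKBIA lay just outside the adjusted threshold, with a mean of 0.76 (SE 0.18, adjusted p = 0.0560), and passed it under 5 of 16 alternatives, with adjusted p between 0.0336 and 0.171. The values of the other 3 were 0.70 (SE 0.23, adjusted p = 0.132) for TNFAIP3, 0.48 (SE 0.14, adjusted p = 0.108) for NFKBIE and 0.29 (SE 0.11, adjusted p = 0.174) for NFKB2. The median of the 11 probes was 0.17, against 0.02 over all probes tested.

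**Figure D3:**
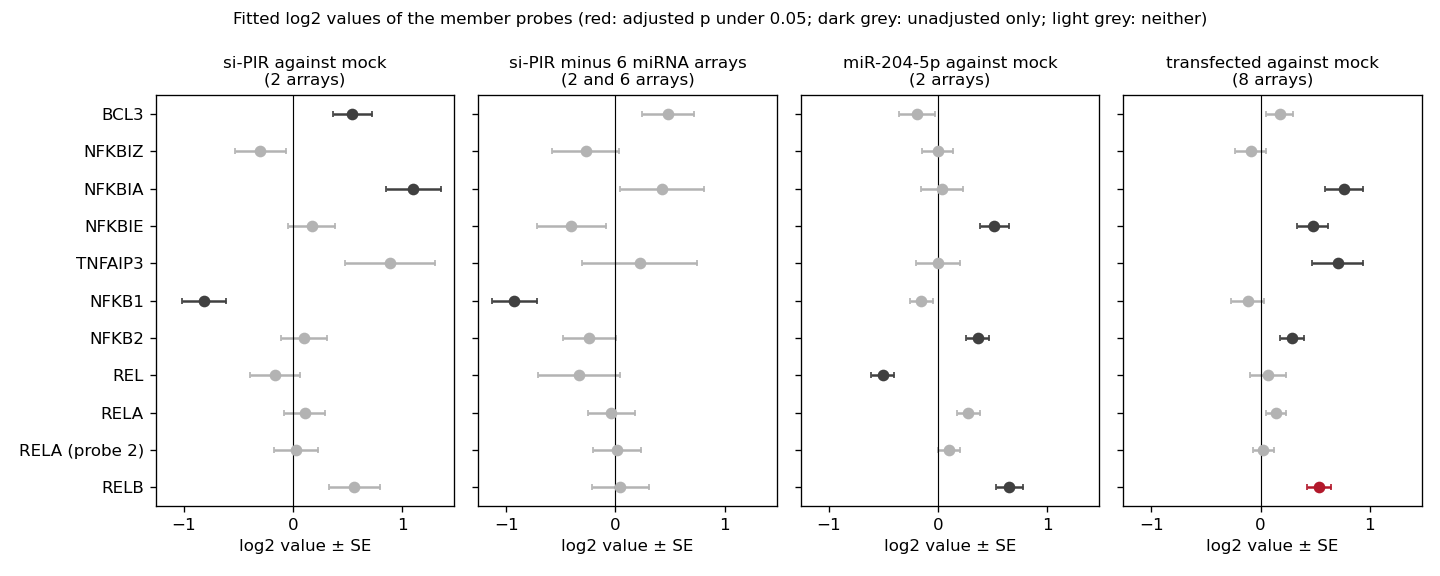
Fitted log2 value with its SE (x axis) for each of the 11 probes (y axis) in 4 comparisons. RELB over all 8 arrays, at 0.53, is the single value in red, past an adjusted p of 0.05, and dark grey points, such as NFKB1 at -0.81 and -0.93, passed only without adjustment.

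NFKB2, the gene of p52, had ratios of 0.67 and 0.65 with miR-144-5p and miR-144-3p and of 0.32 and 0.40 with miR-204-5p, but 0.33 and -0.11 on the si-PIR arrays and -0.03 and 0.07 in PANC1. The ratios of NFKB2 and NFKBIE ran together over the 8 arrays, with an r of 0.871 and a rho of 0.881, given as a description. REL, a subunit prominent in lymphoid cells, had ratios of the same sign within SK-MES-1, within PANC1 and with miR-204-5p. It was at 0.36 and 0.30 in SK-MES-1, 0.66 and 0.72 in PANC1, and -0.46 and -0.55 with miR-204-5p in SW1990 and MDA-MB-231, against 0.12 and -0.46 on the si-PIR arrays. RELA, the main activating subunit, stayed within 0.45 of 0 on all arrays by both probes. Its brighter probe ranged from -0.20 with miR-130-3p to 0.45 with miR-130-5p, and its other probe from -0.26 to 0.39 on the same 2 arrays. The 2 RELA probes differed in sign on 2 of the 8 arrays, at 0.09 and -0.08 with miR-144-5p and at 0.02 and -0.15 with si-PIR-3.

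For miR-204-5p, the 1 microRNA tested in 2 cell lines, the means over SW1990 and MDA-MB-231 were 0.65 (SE 0.12) for RELB, 0.51 (SE 0.13) for NFKBIE, 0.36 (SE 0.11) for NFKB2 and -0.51 (SE 0.11) for REL. The adjusted p in limma was 0.221, 0.236, 0.251 and 0.223, and 0% of 26650 probes passed the adjusted threshold. The probes of REL and NFKB2 were dim, with mock intensities between 59 and 80 on these arrays. Under changes of processing their means shrank to as little as -0.22 and 0.21. The smallest means for RELB and NFKBIE were 0.62 and 0.48. At an unadjusted p under 0.05 there were 2127 probes lower (7.98%), 1 of them REL, and 2817 higher (10.6%), 3 of them NFKB2, RELB and NFKBIE. RELB passed the adjusted threshold after loess with normexp and an offset of 50 (0.0320) and after loess without background correction (0.0259), settings under which 860 and 838 probes were called higher over the whole array. BCL3, NFKBIA and TNFAIP3 had the opposite sign in the 2 lines, with -0.42 and 0.03, -0.25 and 0.32, and -0.30 and 0.31.

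For the other microRNAs there was 1 array each and no replicate check, so a probe at or above 1 on the log2 scale is only named. With miR-144-5p in SK-MES-1 these were NFKBIA, NFKBIE and TNFAIP3, 3 of 11 probes, against 4.20% of all probes measured on that array. With miR-144-3p in SK-MES-1 it was TNFAIP3 alone at 1.01, against 4.58% of all probes. For miR-130-5p in PANC1 NFKBIA and TNFAIP3 reached 1, against 7.96%, and for miR-130-3p in the same cells no member did, against 6.32%. On the miR-204-5p arrays no member reached 1 in SW1990 (4.67% of all probes) or in MDA-MB-231 (3.54%). The 2 strands in PANC1 had NFKBIA at 1.23 and 0.72 and TNFAIP3 at 1.62 and 0.27, while in SK-MES-1 the 2 strands gave nearly equal values for both genes. After normexp with an offset of 50 and loess far fewer probes reached 1, between 23 and 224 on these 6 arrays, and of the members NFKBIA (1.06) and NFKBIE (1.23) with miR-144-5p and NFKBIA (1.23) with miR-130-5p still did.

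The mock channel gives the level of each gene in the mock sample of a line, as log2 intensity relative to the 75th percentile of the array, and is compared only within a probe. PC3 had the lowest level of BCL3, NFKB2, REL, RELB, NFKBIA and TNFAIP3, 6 of the 11 probes, where 16.0% of 19878 probes were lowest in PC3. SW1990 had the highest level of BCL3, NFKB1, REL, NFKBIA and TNFAIP3, 5 of the 11, where 23.1% of all probes were highest in SW1990. For BCL3 the order was SW1990 at 4.98, PANC1 at 4.40, SK-MES-1 at 4.32, MDA-MB-231 at 4.25 and PC3 at 3.79. SW1990 and PC3 stood apart from their neighbours by more than 0.08, the largest difference between 2 arrays of a line, whereas PANC1 and SK-MES-1, and SK-MES-1 and MDA-MB-231, did not.

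TNFAIP3 differed most between the lines. Its level was 1.91 in SW1990, 0.31 in SK-MES-1, -0.53 in PANC1, -1.31 in MDA-MB-231 and -1.92 in PC3, a span of 3.84 (14.3-fold). Every neighbour in this order differed by more than 0.12, the largest difference between 2 arrays of a line, which was not measured for SW1990 and MDA-MB-231. A span of at least 2 was found for TNFAIP3, NFKB2 (2.41), NFKBIZ (2.40) and NFKBIE (2.12), 4 of the 11 probes, where 22.0% of all probes spanned that much. NFKB2 was highest in PANC1 and lowest in PC3, NFKBIE highest in MDA-MB-231 and lowest in SW1990, and NFKBIZ highest in PC3 and lowest in PANC1. RELB spanned 1.92 from PC3 at 3.51 to PANC1 at 5.43, and NFKBIA 1.09 from PC3 at 4.29 to SW1990 at 5.38. RELA varied least, by 0.80 and 0.84 for its 2 probes, and was highest in PANC1 by both. In the Cy3 channel after normexp, loess and Aquantile scaling no member spanned 2: TNFAIP3 spanned 1.95, NFKB2 1.33 and NFKBIZ 0.80, with the same highest and lowest line for each.

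**Figure D4:**
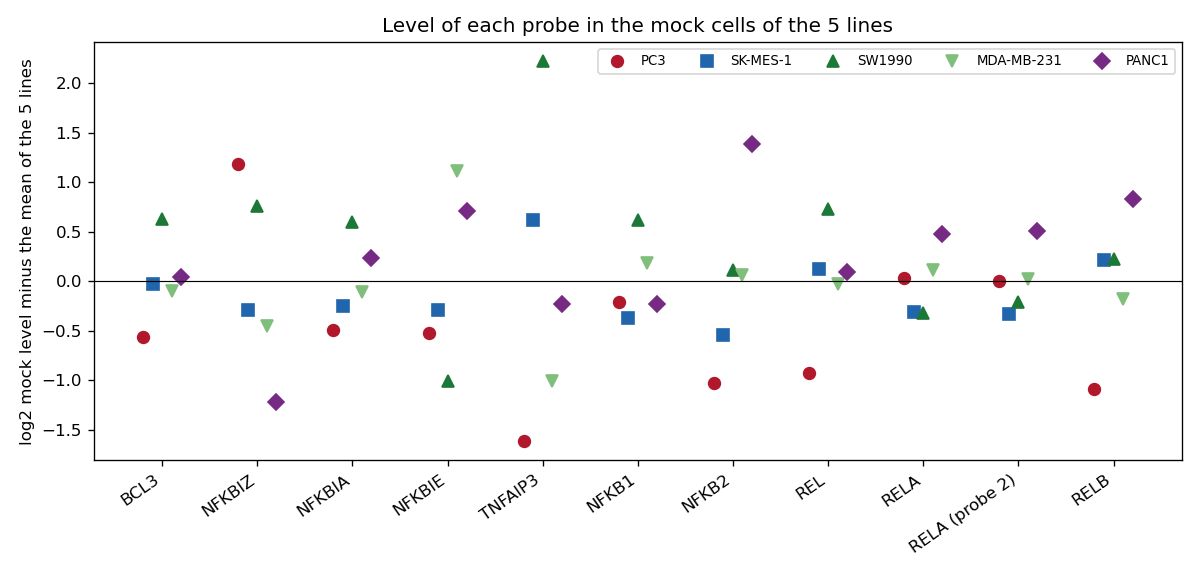
Log2 level in the mock channel minus the mean of the 5 cell lines (y axis) for the 11 probes (x axis), 1 symbol per line, with lines on 2 arrays averaged. PC3 is the lowest symbol for 6 probes, among them BCL3, and TNFAIP3 shows the widest span, 3.84.

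The rest of the pathway was read through 94 further genes in lists of PIR and BCL3 partners, other inhibitors, ligands, receptors, adaptors and kinases, and target genes. For PIR knockdown against mock 78 of them could be tested and none passed the adjusted threshold, with 2 lower and 5 higher at an unadjusted p under 0.05, 1 of the former PIR. Over all probes 4.15% were lower and 6.32% higher, so these counts do not set the list apart. Its 5 higher genes, LTA, MAP3K14, BIRC3, CCL2 and CSF2, are named as values only. LTA was well above background in the mock channel on 0 of the 8 arrays and CCL2 on 4. Neither was tested for PIR knockdown when both channels had to be above background. Under changes of processing their means of 1.49 and 1.54 fell to as little as 0.045 and 0.10. MAP3K14, the kinase that starts the noncanonical pathway leading to RELB and p52, was at 1.59 and 0.81 on the si-PIR arrays (mean 1.20, SE 0.26, adjusted p = 0.439). BIRC3, a ubiquitin ligase that restrains MAP3K14 and is itself a target gene, was at 2.78 and 0.82 (mean 1.80, SE 0.52, adjusted p = 0.450). On the 6 microRNA arrays MAP3K14 ranged from -0.19 with miR-130-5p to 0.91 with miR-144-5p. BIRC3 ranged there from -0.02 with miR-130-5p to 1.63 with miR-144-3p. Against the 6 microRNA arrays none of 67 passed, with 3 lower and 2 higher at an unadjusted p under 0.05, where 935 and 711 of all 24109 probes were, and for miR-204-5p none of 82 passed, with 10 lower and 9 higher, where 7.98% of all probes were lower and 10.6% higher.

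Over all 8 arrays 1 of 67 further genes was called, CCL2, which encodes a monocyte-attracting chemokine and is an NF-kappa-B target gene. Its ratio ranged from 0.51 with miR-130-3p to 1.61 with si-PIR-2 and was above 0 on all 8 arrays, with a mean of 1.03 (SE 0.14, adjusted p = 0.0102). CCL2 was well above background in the transfected channel on all 8 arrays but in the mock channel on only 4. On the others it entered this test through the transfected channel alone. It was not tested over the 8 arrays when both channels had to be above background. With normexp, an offset of 50 and loess its mean was 0.45 and its adjusted p 0.163, and with loess alone they were 0.53 and 0.0808. Without the miR-130-3p array its adjusted p was 0.0556. Of the 21 target genes tested 7 were higher and 0 lower at an unadjusted p under 0.05, with a median of 0.25, against 0.02 over all probes, of which 12.2% were higher and 1962 of 24109 lower at the same p. Of the 7 PIR and BCL3 partners PIR was the 1 lower at an unadjusted p under 0.05, and the median of the list was -0.07.

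The genes whose ratios correlated most with those of a member over the 8 arrays were found among 19816 probes well above background in both channels on every array. For RELB these included TNFRSF6B (r = 0.981) and a transcript without a gene symbol (r = 0.965). For NFKBIA they were lnc-RGL4-4 (r = 0.987), MAPK11 (r = 0.955) and RAMP1 (r = 0.953), and for TNFAIP3 NUTM2B-AS1 (r = 0.968), lnc-CPT2-5 (r = 0.956) and SYT15 (r = 0.950). For BCL3 they included a probe without a gene name (r = 0.964) and SMIM15 (r = 0.935). The likeness is in the order of the arrays and not in level or sign: the ratio of lnc-RGL4-4 lay between -1.49 and -0.67, below 0 on every array, that of MAPK11 between -0.84 and 0.05, and that of RAMP1 between -1.66 and 0.24, while NFKBIA was above 0 on 7 of 8. With so many probes and 8 points, correlations of this size are a description only. By mock level over the 5 lines BCL3 was most like SNORD15A, FAIM and MGC57346-CRHR1, with root mean square differences of 0.0581, 0.0791 and 0.0858 in centred log2 level.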

How the data were processed

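Gene expression was measured on 8 two-colour Agilent Human GE 60K arrays. The authors deposited the scanner output, made with Agilent Feature Extraction 11.5.1.1 per the file headers: fluorescence intensity per spot and channel, and a log10 ratio of the red (Cy5) to the green (Cy3) channel after background subtraction, detrending and dye normalization. The deposited value table held the same log10 ratios. Probe positions are on hg19. The ratio was converted to log2, spots that were controls or flagged as outliers were dropped, and repeat spots were averaged. Tests covered probes that the scanner called well above background, in either channel, on every array of a comparison and were made with limma 3.58.1 (R 4.3.3), with Benjamini-Hochberg adjustment over all probes and a threshold of 0.05. Where 8 arrays entered, cell line was a random block, its correlation estimated on 1 probe in 10. The fit was tested on simulated data. The mock level was the log2 processed Cy3 intensity minus its 75th percentile.

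Each member probe is reported, and the brightest probe stands for a gene. From other lists, called genes were named, or else up to 3 with the largest mean ratio and 1 sign. The members and lists were chosen with earlier results of these data known. Alternatives changed background correction, offset, centring, filter, unit and block, and left out each array in turn. The number of arrays limits the precision. Some genes whose ratios ran like a member's are not reported here.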

Additional observations from a re-analysis of the deposited data

Results flagged for a closer look

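With miR-204-5p, the same microRNA in 2 cell lines, NFKBIA had a log2 ratio of -0.25 in SW1990 and 0.32 in MDA-MB-231, and TNFAIP3 had -0.30 and 0.31. Each value was larger in size than the scanner's error of its array, which was 0.205 and 0.206 for NFKBIA and 0.206 and 0.225 for TNFAIP3. The NFKBIA value in SW1990 exceeded its error by little. TNFAIP3 was dim in MDA-MB-231, with a mock intensity of 39.8. After normexp with an offset of 50 and loess, TNFAIP3 was at -0.22 in SW1990 but only 0.06 in MDA-MB-231. NFKBIA was then at -0.24 and 0.30. Both genes stand here because the scanner ratio of the single array of one line had one sign and that of the other line the opposite sign. The difference was not tested, since each line had 1 array.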

How the results depend on the processing

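Over all 8 arrays 119 probes were called lower and 268 higher; the counts became 191 and 465 with normexp, an offset of 50 and loess, 229 and 448 with loess and no background correction, and 246 and 527 without cell line as a block, and 158 were higher without the filter on dim probes. Leaving out 1 array gave 17 to 69 lower and 4 to 140 higher. For miR-204-5p no probe was called with the scanner ratio, but 733 lower and 860 higher were with normexp, an offset of 50 and loess, 873 and 838 with loess alone, 8 lower with an offset of 1, and 6 lower with both channels above background. For si-PIR against the microRNA arrays, where none was called, 1 was lower with either normexp offset, with both channels above background or without the block, 2 with loess alone, and 69 lower and 54 higher without the filter, and leaving out 1 array gave 0 to 14 lower and 0 to 4 higher. On the si-PIR arrays 125 probes were at or below -1 on both and 229 at or above 1; these became 22 and 7 with normexp, an offset of 50 and loess, 67 and 32 with an offset of 1, 33 and 11 with loess alone, and 404 and 452 without the filter, with 31 at or above 1 when both channels had to be above background. Single si-PIR arrays had 734 to 918 at or below -1 and 1219 to 1890 at or above 1. Probes at or above 1 after normexp with an offset of 50, then with both channels above background, were 42 and 228 for miR-144-5p, 23 and 149 for miR-144-3p, 32 and 173 in SW1990, 27 and 158 in MDA-MB-231, 224 and 963 for miR-130-5p, and 147 and 419 for miR-130-3p. Mock levels spanned at least 2 for 4366 probes, and for 1778 after Aquantile scaling.

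TNFAIP3 turned sign against the microRNA arrays with normexp and an offset of 50 (-0.041), and for miR-204-5p with normexp at an offset of 50 (-0.079) or 1 (-0.076), loess alone (-0.060) and centring (-0.032), where NFKBIZ turned with loess alone (0.048). Leaving out 1 array gave, for si-PIR against mock, -0.11 to 0.33 for NFKB2, -0.058 to 0.40 for NFKBIE and -0.46 to 0.12 for REL. Against the microRNA arrays it gave -0.25 to 0.33 for RELB, -0.57 to 0.021 for NFKBIZ, -0.48 to 0.98 for TNFAIP3, -0.13 to 0.050 for RELA and -0.087 to 0.18 for TNFSF12. For miR-204-5p it gave -0.42 to 0.033 for BCL3, -0.18 to 0.17 for NFKBIZ, -0.25 to 0.32 for NFKBIA and -0.30 to 0.31 for TNFAIP3, and over all arrays -0.024 to 0.17 for REL and -0.20 to 0.0078 for NFKBIZ. The causes were not tested. With 2 arrays, leaving out 1 gives a value with no test. Slide as a block was not run, since all arrays lay on 1 slide. No paired analysis was possible because each ratio already pairs a transfected sample with its mock sample and the groups compared share fewer than 2 replicate numbers. Signal over background limits NFKB2, REL, NFKBIZ and TNFAIP3 most.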
